A study of Tetranychus urticae with 12 samples.

Results

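The 100 most abundant transcripts of the 2-spotted spider mite Tetranychus urticae were examined across 3 strains. They were the 100 genes, of 19114 in the deposited count table, with the highest mean of the 3 strain means in CPM, the counts of a gene per 1e6 counts of its library. The members were thus chosen by their measured levels in these same libraries, so the levels below are a description. A gene that is very high in a single strain can enter this list through that strain alone. All 100 passed the filter on low counts.

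RNA of whole, untreated mites was sequenced. Trizina, a strain with resistance to many insecticides in a study of a Greek field population, was compared with the susceptible strains London and BC2018-14. All 3 were reared on kidney bean plants without insecticide. The labels give no age, sex or stage of the mites, and Trizina is the only resistant strain. Counts over all genes were used for 4 Trizina, 3 London and 4 BC2018-14 libraries, which are named below by the number or letter of their label. London library 5 was used only where the authors' deposited comparison table lists a gene. The labels do not say whether the libraries of a strain are separate cultures, and the p-values below may reflect technical spread alone.

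Spider mites feed by piercing leaf cells and sucking out their contents. In whole-body RNA of small arthropods, transcripts of a few large tissues (gut, muscle, ovary) and of the protein synthesis machinery usually take up many of the reads, because such cells make a few proteins in bulk. A gene's share of the reads also grows with transcript length. Gene lengths were not used here, so the ranks below order genes by reads and not by molecules. The files do not pair the gene IDs with names, and 0 of the 100 members matched the RefSeq gene table, so no member is given a name or a role. The label of whole body could not be checked against marker genes for the same reason. In whole bodies, fewer cells of a type and less RNA per cell cannot be told apart.

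The members held between 15.4% and 24.8% of all counts of a library. In Trizina their share was 18.6% in library 4, 18.2% in library 5, 18.3% in library 6 and 18.1% in library 7. London had 24.8% in library 2, 24.4% in library 3 and 22.4% in library 4. BC2018-14 had 16.1% in library a, 16.9% in library b, 16.8% in library c and 15.4% in library e. Every London library was above every Trizina library, and every Trizina library was above every BC2018-14 library. The strain means were 18.3 ± 0.239% in Trizina (SD, n = 4), 23.9 ± 1.31% in London (SD, n = 3) and 16.3 ± 0.695% in BC2018-14 (SD, n = 4). The order was the same when each library was given its own 100 highest genes, with 18.5 ± 0.214% in Trizina, 24.7 ± 1.71% in London and 16.9 ± 0.440% in BC2018-14 (SD, n = 4, 3 and 4). The number of highest genes that held 50% of all counts was 926 to 941 in a Trizina library and 643 to 754 in a London library. In a BC2018-14 library it was 994 to 1034.

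The London excess lay in the 4 highest members, tetur03g09300, tetur516g00020, tetur43g00010 and tetur18g03050. Together they took 9.53 ± 1.85% of a London library (SD, n = 3). In Trizina they took 2.59 ± 0.386% (SD, n = 4), and in BC2018-14 the figure was 1.12 ± 0.638% (SD, n = 4). The other 96 members held less in London than in the other strains, at 14.3 ± 0.582% against 15.7 ± 0.149% in Trizina and 15.2 ± 0.185% in BC2018-14 (SD, n = 3, 4 and 4). As a share of the counts outside those 4 genes, the 96 members held 15.8 ± 0.354% in London, 16.1 ± 0.0912% in Trizina and 15.3 ± 0.226% in BC2018-14 (SD, n = 3, 4 and 4). London then lay between the other strains, and its range of 15.4% to 16.1% overlapped the ranges of both. This division at the 4 highest members was chosen after the values had been seen, and the ranks themselves use the London levels.

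**Figure D1:**
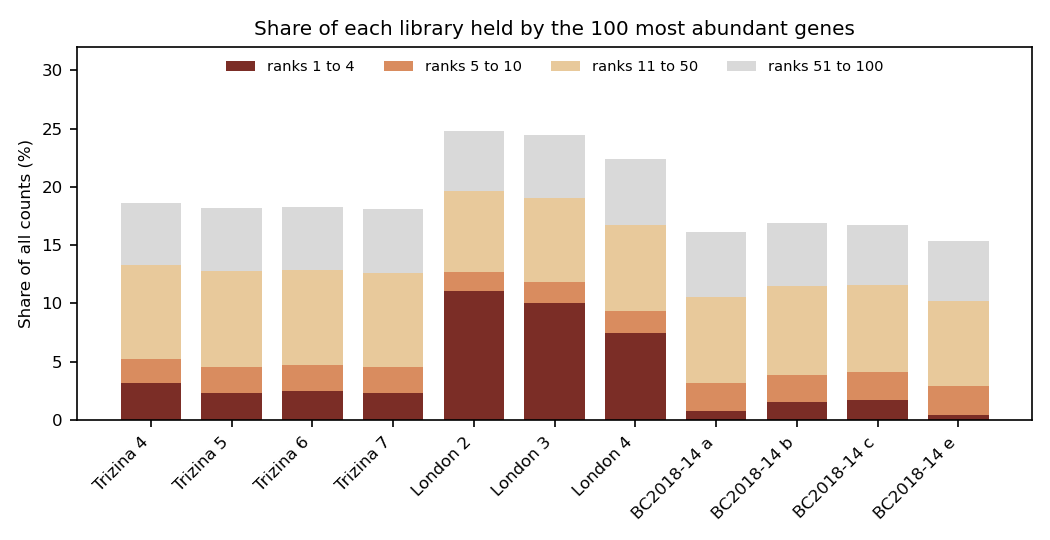
Share of all counts (%) in each of the 11 libraries that was held by the members, with each bar divided by rank of the member's mean level. The part for ranks 1 to 4 is 7.48% to 11.1% of a London library and at most 3.15% of a library of the other strains, whereas the parts above it are of similar height throughout.

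Levels within the list were uneven. The mean of strain means ran from 15884 CPM at rank 1 to 894.1 CPM at rank 100, with a median of 1331 CPM. Only 4 members exceeded 5000 CPM, 22 lay between 2000 and 5000 CPM, and 74 were below 2000 CPM. At the border, tetur18g03030 at rank 100 had a mean of 894.1 CPM and tetur05g03640, the first gene outside, had 890.0 CPM. The last member entered through London, with strain means of 1674 CPM there, 844.4 CPM in Trizina and 164.1 CPM in BC2018-14, whereas tetur05g03640 had 946.9, 882.8 and 840.3 CPM in the same strains. Being next to each other at the border thus went with very different patterns over strains.

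Abundance ranks were largely shared by the strains. In each strain genes were ranked by mean CPM, a rank that scaling of whole libraries hardly touches. Of the members, 73 were among the 100 highest genes of every strain, 23 were in 2 of these lists, 4 were in a single list and 0 were in none. Membership was closest to the Trizina order, with 95 members among its own 100 highest genes, against 87 in London and 87 in BC2018-14. In single libraries 78 to 93 members were among the 100 highest, and 49 members were among them in all 11. The 100 highest genes of Trizina shared 85 with those of London and 83 with those of BC2018-14, while London and BC2018-14 shared 74. A member's rank differed by a median of 10.5 places between Trizina and London, 10 places between Trizina and BC2018-14, and 19 places between the susceptible strains. It differed by over 50 places for 5, 12 and 18 members in these pairs.

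Over the 3 strains, 26 members held their rank within 10 places and 9 shifted by over 100 places. The 2 with the widest range were tetur05g01730, at rank 13 in London, 46 in Trizina and 10638 in BC2018-14, and tetur18g03030, at rank 35 in London, 116 in Trizina and 1457 in BC2018-14. The first place was held by tetur03g09300 in all 4 Trizina libraries and by tetur516g00020 in all 3 London libraries. In BC2018-14 it depended on the library. By strain mean tetur31g01670 came first with 5754 CPM, just ahead of tetur21g02180 with 5714 CPM. It was the highest gene in library a only, while tetur03g09300 was highest in libraries b and c and tetur21g02180 in library e. Without library a or library e the mean of tetur03g09300 was the highest of BC2018-14, at 5823 and 6507 CPM. By strain mean, tetur03g09300 was also the next highest gene of London after tetur516g00020, with 29651 CPM.

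**Figure D2:**
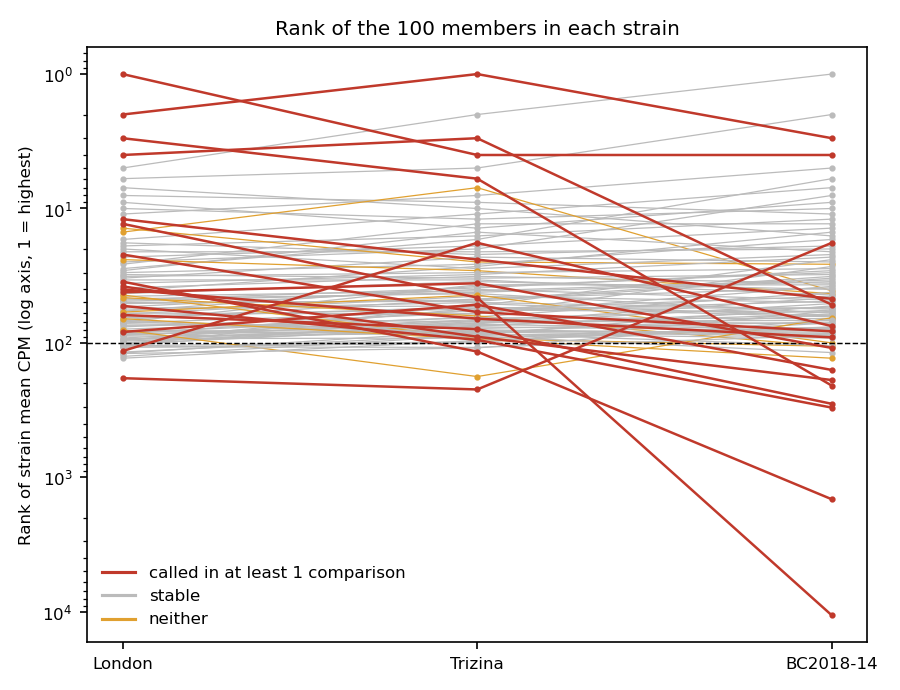
Rank of each member by strain mean CPM in London, Trizina and BC2018-14 (log axis, 1 at the top, dashed line at 100), joined by a line per member. The 76 grey members stay close to level, and the steepest red line is tetur05g01730, which goes from rank 13 in London to rank 10638 in BC2018-14.

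Genes outside the list show what a mean over strains leaves out. There were 5 such genes among the 100 highest of Trizina, 13 in London and 13 in BC2018-14. In London they included tetur03g08460, named after its values were seen, which was at rank 16 with 2386 ± 812 CPM (SD, n = 3). It had 74.8 ± 17.7 CPM in Trizina (SD, n = 4) and 24.7 ± 12.7 CPM in BC2018-14 (SD, n = 4), which left it at rank 109 by the mean of strain means. For the 13 such genes of BC2018-14 the lowest mean in another strain was 478 CPM, so none of them was low elsewhere in the same way.

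Differences between strains were tested in 1 model of all 11 libraries and 14394 genes, with edgeR's quasi-likelihood test. To be called, a gene needed an adjusted p (Benjamini-Hochberg) under 0.05 together with a log2 fold change of at least 1 in size. A member was termed stable when the 95% interval of its log2 fold change lay between -1 and 1 in all 3 comparisons, which excludes a doubling or a loss of the same size at that level of confidence. Libraries were scaled in the fit by TMM factors, which were 0.874 to 0.918 for London, 1.00 to 1.02 for Trizina and 1.06 to 1.09 for BC2018-14, so that equal fitted levels appear as a lower CPM in London. By these definitions 76 members were stable, 16 were called in at least 1 comparison and 8 were neither. Among all genes tested, 50.4% were stable and 29.9% were called at least once. The closer yardstick is the next 900 genes by the same mean, of which 84.0% were stable and 90 were called at least once. The members therefore stood between these genes and the whole table, and nothing particular to the list follows from its count of stable genes.

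Stable did not mean identical. The largest of a stable member's 3 log2 fold changes had a median size of 0.24 and ran from 0.02 to 0.77. In 32 of the 76 stable members at least 1 comparison had an adjusted p below 0.05 in edgeR's quasi-likelihood test, so small differences passed the test. With the narrower bound of a 1.5-fold change, chosen after the data had been seen, 53 members were stable, against 27.8% of all genes tested.

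The 2 members with the smallest changes were tetur15g00660 and tetur38g00440. For tetur15g00660 the values were 1254, 1243, 1291 and 1294 CPM in Trizina libraries 4 to 7, 1032, 1002 and 1356 CPM in London libraries 2 to 4, and 1432, 1311, 1261 and 1286 CPM in BC2018-14 libraries a, b, c and e. The groups overlapped, and the 3 log2 fold changes were between -0.02 and 0.02 with standard errors of 0.0967 to 0.104. The 95% interval between BC2018-14 and London ran from -0.25 to 0.21, and that between Trizina and London from -0.23 to 0.23. For tetur38g00440, at rank 10, the values were 2862, 3026, 2906 and 2964 CPM in Trizina, 2493, 2515 and 2930 CPM in London, and 3152, 2880, 2983 and 3214 CPM in BC2018-14. Its groups also overlapped, with log2 fold changes of -0.02 for Trizina against London, 0.02 against BC2018-14 and -0.04 for BC2018-14 against London.

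Stable members filled the places from rank 5 to rank 10. The gene tetur31g01670, at rank 5, had 4807, 5878, 5486 and 5270 CPM in Trizina, 3068, 4185 and 3999 CPM in London, and 5703, 5525, 5733 and 6054 CPM in BC2018-14. London was below the others without overlap in CPM, but the fitted log2 fold change of Trizina over London was only 0.35 ± 0.111 (SE, adjusted p = 0.0283, edgeR quasi-likelihood), with a 95% interval from 0.11 to 0.59. At rank 6, tetur21g02180 had 4143, 4080, 4439 and 4352 CPM in Trizina, 2535, 3529 and 3356 CPM in London, and 5404, 5452, 5872 and 6128 CPM in BC2018-14. Its 3 groups did not overlap and followed the order London, Trizina, BC2018-14. The log2 fold change of BC2018-14 over London was 0.62 ± 0.107 (SE, adjusted p = 0.000599, edgeR quasi-likelihood), below the size needed for a call. Ranks 7 to 9 were held by tetur03g06910, tetur14g00730 and tetur08g03040, with mean levels of 3107, 2985 and 2902 CPM. Strain means of these 3 genes lay between 2628 and 3430 CPM, and none of their 9 comparisons had an adjusted p below 0.05.

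**Figure D3:**
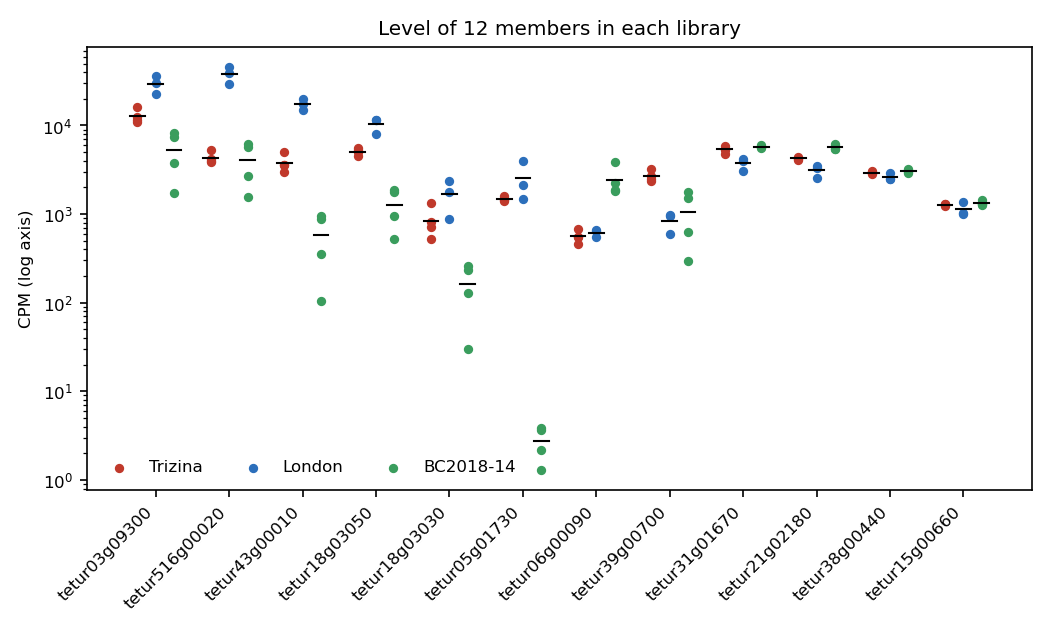
CPM of 12 members in each library (log axis), with a point per library and a black line at the strain mean. The members furthest to the right, tetur38g00440 and tetur15g00660, have nearly level groups. The gene tetur05g01730 lies below 4 CPM in all BC2018-14 libraries, and points of BC2018-14 spread widely in most of the other members.

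Between Trizina and London, 5 members were called, 4 lower and 1 higher in Trizina. This is 5%, against 17.6% of all genes tested and 3.44% of the next 900 genes. Among all genes 7.62% were called higher and 9.96% lower, a balance that turned with library size alone (1330 higher and 1252 lower), whereas the members kept 1 higher and 4 lower. All 4 lower members were the 4 highest of the list, and 0 of the other 96 were called lower. The list is ordered by a mean that includes London, so a very high London level itself moves a gene towards the top. The largest difference was in tetur516g00020. It had 5263, 4019, 4234 and 3865 CPM in Trizina, 45539, 38878 and 29601 CPM in London, and 2709, 5746, 6116 and 1567 CPM in BC2018-14. London stood far above both other strains, which overlapped each other. Trizina was lower than London by a log2 fold change of -3.30 ± 0.423 (SE, adjusted p = 0.000133), a 9.87-fold difference, and BC2018-14 was lower by -3.48 ± 0.426 (SE, adjusted p = 7.71e-05), an 11.2-fold difference, in edgeR's quasi-likelihood test. Between Trizina and BC2018-14 its log2 fold change was 0.18 with a 95% interval from -0.66 to 1.01. The authors' deposited table of Trizina and London also lists this gene, with a log2 fold change of -3.30 and a raw count of 1124102 in London library 5, beside 1332558, 1149348 and 1180361 in London libraries 2, 3 and 4.

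The other members called lower in Trizina than in London were graded over the strains. For tetur43g00010 the values were 4979, 2994, 3611 and 3607 CPM in Trizina, 17325, 19807 and 14801 CPM in London, and 352, 888, 960 and 103 CPM in BC2018-14. No groups overlapped, with London highest and BC2018-14 lowest. The log2 fold change of Trizina was -2.36 ± 0.581 against London (SE, adjusted p = 0.00883) and 2.79 ± 0.567 against BC2018-14 (SE, adjusted p = 0.00321). Between the susceptible strains it was -5.15 ± 0.645 (SE, adjusted p = 9.34e-05), or 35.5-fold. The authors' deposited tables give this gene a log2 fold change of -2.45 against London and 2.80 against BC2018-14.

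The gene tetur18g03050 had 5283, 5525, 4994 and 4469 CPM in Trizina, 11680, 11404 and 8026 CPM in London, and 950, 1763, 1860 and 527 CPM in BC2018-14, in the same order without overlap. Its log2 fold change in Trizina was -1.21 ± 0.364 against London (SE, adjusted p = 0.0246) and 2.06 ± 0.353 against BC2018-14 (SE, adjusted p = 0.00112). At the top of the list, tetur03g09300 had 16014, 10974, 12364 and 11381 CPM in Trizina, 36158, 30429 and 22367 CPM in London, and 3800, 7401, 8321 and 1748 CPM in BC2018-14. Again the 3 groups did not overlap. The corresponding values were -1.40 ± 0.438 (SE, adjusted p = 0.0288) and 1.32 ± 0.414 (SE, adjusted p = 0.0277). Between the susceptible strains both genes differed more, by 9.63-fold for tetur18g03050 and 6.60-fold for tetur03g09300, with BC2018-14 lower. The authors' deposited table of Trizina and London lists neither gene. That of Trizina and BC2018-14 lists tetur18g03050 but not tetur03g09300.

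The member called higher in Trizina than in London was tetur39g00700. It had 3210, 2367, 2671 and 2473 CPM in Trizina, 943, 975 and 589 CPM in London, and 627, 1526, 1795 and 297 CPM in BC2018-14. Trizina lay above both other strains without overlap, and this was the only member called higher in Trizina than in both. The log2 fold changes were 1.51 ± 0.521 against London (SE, adjusted p = 0.0436) and 1.40 ± 0.470 against BC2018-14 (SE, adjusted p = 0.0365). Both calls were near the threshold and depended on single libraries. Against London the call was lost without any 1 of the 7 Trizina and London libraries, with log2 fold changes from 1.31 to 1.62. The authors' deposited table of Trizina and London lists this gene with a log2 fold change of 1.53. Its raw count there was 23200 in London library 5, beside 27586, 28822 and 23503 in London libraries 2, 3 and 4. Their table of Trizina and BC2018-14 does not list it, and the members listed there have larger changes, of at least 2.03 in size.

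The count of 5 members also rested on single libraries. It fell to 2 without Trizina library 6, Trizina library 7 or London library 2, and to 3 without London library 3. The calls of tetur516g00020 and tetur43g00010 were kept in each of the 11 fits that left out a library. That of tetur18g03050 was lost without each of the 4 libraries just named, with log2 fold changes from -1.20 to -1.09, and that of tetur03g09300 was lost without these or without Trizina library 5, with values from -1.40 to -1.21. Against BC2018-14, tetur03g09300 lost its call without Trizina library 4, Trizina library 6 or BC2018-14 library a, with values from 1.19 to 1.33.

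Between Trizina and BC2018-14, 10 members were called, 9 higher and 1 lower in Trizina. This is 10%, against 15.1% of all genes tested and 4.78% of the next 900. Among all genes 9.91% were called higher and 5.18% lower. The widest gap was in tetur05g01730. Its values were 1604, 1482, 1433 and 1407 CPM in Trizina and 4010, 1489 and 2131 CPM in London, but 3.64, 3.84, 2.18 and 1.30 CPM in BC2018-14. BC2018-14 was thus near 0 for a gene that was among the 50 highest of both other strains. The counts behind these low levels in BC2018-14 were 95, 102, 58 and 35 reads. The log2 fold change was 9.15 ± 0.476 (SE, adjusted p = 2.45e-07) for Trizina against BC2018-14 and -10.11 ± 0.497 (SE, adjusted p = 8.37e-08) for BC2018-14 against London. Between Trizina and London it was -0.96 ± 0.350 (SE, adjusted p = 0.0536), which did not pass. London library 2 stood above the other London libraries.

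The member called lower was tetur06g00090. It had 681, 551, 461 and 556 CPM in Trizina, 545, 640 and 659 CPM in London, and 3899, 1854, 2223 and 1823 CPM in BC2018-14. All BC2018-14 libraries were above all others, and Trizina and London overlapped. It was the only member called higher in BC2018-14 than in both other strains, with a log2 fold change of -2.05 ± 0.233 for Trizina against BC2018-14 (SE, adjusted p = 5.51e-05) and 1.75 ± 0.255 for BC2018-14 against London (SE, adjusted p = 0.000212). Its rank was 18 in BC2018-14, 222 in Trizina and 183 in London.

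The count of 10 members fell to 5 without Trizina library 4 or Trizina library 6 and to 6 without Trizina library 7. It was 15 without BC2018-14 library b and 6 when only these 2 strains were fitted. Calls of 5 members were kept in all 11 fits that left out a library, namely tetur43g00010, tetur18g03050, tetur05g01730, tetur06g00090 and tetur18g03030. These are the same 5 members that the authors' deposited table of Trizina and BC2018-14 lists. That table rests on the same libraries, so the match is not independent, and it gives log2 fold changes of at least 2.03 in size for these members. The last of them, tetur18g03030, had 1335, 521, 815 and 706 CPM in Trizina, 891, 2362 and 1769 CPM in London, and 129, 262, 236 and 30.1 CPM in BC2018-14. BC2018-14 was lowest without overlap, whereas Trizina and London overlapped. The log2 fold change was 2.43 ± 0.595 for Trizina against BC2018-14 (SE, adjusted p = 0.00879) and -3.58 ± 0.643 for BC2018-14 against London (SE, adjusted p = 0.00106).

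Between the susceptible strains, 14 members were called, 13 lower and 1 higher in BC2018-14 than in London. This is 14%, against 21.7% of all genes tested and 7.89% of the next 900. Of all genes, 14.0% were called lower and 7.68% higher, a balance that was close to even with library size alone (1581 higher and 1698 lower). With library size alone 9 members were called lower and 1 higher. The calls of 10 members were kept in all 11 fits that left out a library. They were the 4 highest members, the single higher member tetur06g00090, and tetur05g01730, tetur30g00140, tetur39g00720, tetur09g04580 and tetur18g03030.

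Of these, tetur30g00140 was called in this comparison alone and tetur09g04580 also against Trizina. The values of tetur30g00140 were 999, 834, 980 and 1055 CPM in Trizina, 1671, 1364 and 1818 CPM in London, and 589, 1250, 293 and 339 CPM in BC2018-14. London was above both other strains, while BC2018-14 library b lay above all Trizina libraries. Its log2 fold change of BC2018-14 over London was -1.63 ± 0.421 (SE, adjusted p = 0.00884, edgeR quasi-likelihood), whereas the adjusted p of Trizina was 0.116 against London and 0.173 against BC2018-14. For tetur09g04580 the values were 962, 727, 789 and 1284 CPM in Trizina, 2043, 1292 and 664 CPM in London, and 376, 633, 610 and 236 CPM in BC2018-14. BC2018-14 was lowest without overlap, and London library 4 was below every Trizina library. Its log2 fold change was 1.09 ± 0.392 for Trizina against BC2018-14 (SE, adjusted p = 0.0482, edgeR quasi-likelihood). For BC2018-14 against London it was -1.78 ± 0.419 (SE, adjusted p = 0.00544, edgeR quasi-likelihood). The call of Trizina against BC2018-14 was kept in 3 of the 11 fits that left out a library, with values from 0.86 to 1.28 over the 11. Those 3 fits left out London library 2, London library 4 or BC2018-14 library b, and London is outside that comparison.

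The calls of tetur07g00320, tetur19g02170, tetur29g01360 and tetur12g01560 as lower in BC2018-14 than in London depended on single libraries. They were kept in only 3, 6, 6 and 5 of the 11 fits that left out a library. Of these fits, 4 left out a Trizina library, which is outside this comparison. Among the others, the call of tetur07g00320 was kept without London library 3 or BC2018-14 library b. That of tetur19g02170 was kept without London library 4 or BC2018-14 library b, and that of tetur29g01360 without BC2018-14 library a or b. For tetur12g01560 it was kept without London library 3, London library 4 or BC2018-14 library b. In tetur19g02170 London libraries 2, 3 and 4 had 3657, 2093 and 750 CPM, the lowest of which lies within the BC2018-14 range of 708 to 1314 CPM. The member called higher in Trizina than in BC2018-14 and in no other comparison was tetur07g00160, and that call was kept in 3 of the 11 fits. Its values were 1658, 1034, 1336 and 1455 CPM in Trizina, 747, 1154 and 1174 CPM in London, and 985, 967, 443 and 234 CPM in BC2018-14. Trizina was above BC2018-14 without overlap, but London overlapped both.

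Among the 8 members that were neither called nor stable, tetur01g02540 was lower in Trizina than in both susceptible strains by the test. It had 567, 786, 689 and 487 CPM in Trizina, 1055, 1171 and 900.5 CPM in London, and 981, 1185, 1274 and 1236 CPM in BC2018-14. Trizina was below both other strains without overlap, and these overlapped each other. The log2 fold change was -0.89 ± 0.164 against London (SE, adjusted p = 0.00115) and -0.81 ± 0.154 against BC2018-14 (SE, adjusted p = 0.00163, edgeR quasi-likelihood), which passed on p and missed the size for a call.

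Counted over strains, 4 members were called higher in London than in both others, against 7.12% of all genes tested and 1.89% of the next 900. The number called lower in BC2018-14 than in both others was 7, against 5.88% and 2.89%. Of these, 3 were in both classes, tetur03g09300, tetur43g00010 and tetur18g03050, against 1.45% and 0.667%. A single member was called higher in BC2018-14 than in both others, against 2.18% and 0.333%, and another higher in Trizina than in both, against 2.76% and 0.222%. The remaining 6 were called in 1 comparison each. Since the list has 100 members, each count is also a percentage. These classes share libraries and are not independent of each other. Trizina against London and BC2018-14 against London use the same London libraries. As a whole the list shifted little. The median log2 fold change of the 100 members was -0.03 for Trizina against London, 0.13 for Trizina against BC2018-14 and -0.11 for BC2018-14 against London, beside 0.00, 0.01 and 0.00 over all genes tested. Library size alone moved the median of all genes by 0.17 in the first and by 0.25 in the last of these comparisons, so these small medians are read against it. With each of the 4 scalings tried, the median of the members was 0.03 to 0.04 below that of all genes for Trizina against London, 0.12 above it for Trizina against BC2018-14, and 0.11 below it for BC2018-14 against London.

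Some members differed widely between libraries of the same strain. In BC2018-14 the highest library was at least 2 times the lowest for 18 members, or 18%, against 6.33% of the next 900 genes. London had 6 such members, or 6%, the same share as the 6% of the next 900 genes, and Trizina had 2, or 2%, against 0.667%. Of the 18 members in BC2018-14, 15 were among the 16 called members and 0 were stable, and tetur39g00810, tetur39g00530 and tetur03g09480 were not called. Of the 6 in London 5 were called, and of the 2 in Trizina both were called. The widest was tetur43g00010, where library c was 9.29 times library e. In 15 of the 18 library e was the lowest. For 7 members the libraries stood in the single order e, a, b, c, from lowest to highest. They were the 4 highest of the list and tetur39g00810, tetur39g00700 and tetur39g00720 of scaffold 39. Another 3 members followed the order c, e, a, b, namely tetur07g00320, tetur39g00530 and tetur30g00140. What sets these libraries apart is not given in the labels and was not tested.

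Apart from these genes the libraries were close. The SD of TMM-scaled log2 CPM within a strain had a median over members of 0.110 in Trizina, 0.216 in London and 0.0846 in BC2018-14. Over all genes tested it was 0.151, 0.255 and 0.139, and over the next 900 genes it was 0.0929, 0.219 and 0.0782 (n = 4, 3 and 4 libraries). The members were thus no steadier between libraries than the next 900 genes in Trizina and BC2018-14.

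**Figure D4:**
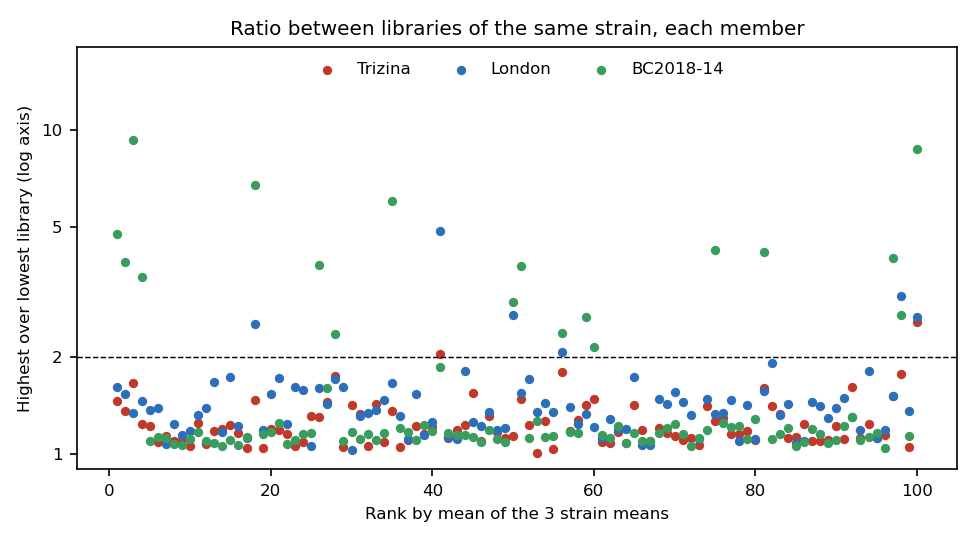
Ratio of the highest to the lowest library of the same strain for each member (log axis), by rank of the member's mean level, with a dashed line at 2. Points of BC2018-14 make up most of those above the line, up to 9.29, although nearly all members of this strain lie close to 1.

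The members were spread over the assembly. The number between tetur and g in an ID was read as the scaffold. By it the 100 members lay on 36 of 417 scaffolds, 13 of which held a single member. The 11 scaffolds with at least 500 genes held 55 members, while 54.7% of all genes lie on them. Scaffold 1 had 9 members of 1722 genes, scaffold 8 had 8 of 822 and scaffold 3 had 7 of 1029. Scaffold 2 had 4 of 1539 genes and scaffold 4 had 2 of 977. Scaffold 39, with only 76 genes, had 4 members, or 5.26 per 100 genes. On the scaffolds with at least 500 genes the highest such number was 0.973 per 100 genes, on scaffold 8. Tiny scaffolds exceeded both, with 2 members among 3 genes on scaffold 130 and 1 among 2 genes on scaffold 516.

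The 4 members on scaffold 39 were tetur39g00530, tetur39g00700, tetur39g00720 and tetur39g00810, and 0 of them were stable. By contrast, 7 of 8 members on scaffold 8 and 8 of 9 on scaffold 1 were stable, with 0 called on either. Scaffold 39 was not alone in this, since 0 of 3 members on scaffold 12 and 0 of 2 on scaffold 18 were stable. The gene tetur39g00810 reached 4328, 2944, 3397 and 3302 CPM in Trizina, 2755, 3432 and 1361 CPM in London, and 896, 2134, 2402 and 354 CPM in BC2018-14. Trizina was above BC2018-14 without overlap, but the log2 fold change of 1.34 ± 0.518 did not pass (SE, adjusted p = 0.0627, edgeR quasi-likelihood). The values of tetur39g00720 were 1288, 849, 1044 and 1027 CPM in Trizina, 1401, 1340 and 930 CPM in London, and 311, 679, 761 and 189 CPM in BC2018-14, where it was called lower than in both other strains. The call against Trizina was kept in 5 of the 11 fits that left out a library and lost without Trizina libraries 4, 6 or 7, London library 2, or BC2018-14 libraries a or e, with log2 fold changes from 0.91 to 1.49 over the 11. Although tetur39g00700 is next to tetur39g00720 in the ID order, London was low for the former and not for the latter.

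In the ID order, 8 members were in a pair with at most 2 IDs between. Of these pairs, 2 followed each other directly and 2 more had 1 ID between them. Whether this is more or fewer than position alone would give was not tested. The first kind also included tetur09g05350 and tetur09g05360, both stable. Their order in abundance differed between strains, since BC2018-14 had 3139 ± 85.2 CPM of the former and 2013 ± 62.8 CPM of the latter (SD, n = 4), whereas Trizina had 2495 ± 182 and 2743 ± 162 CPM (SD, n = 4). The second kind comprised tetur18g03030 with tetur18g03050, and tetur130g00010 with tetur130g00030. Both of the former were lower in BC2018-14 than in the other strains, and both of the latter were stable, on a scaffold with 3 genes. Reads of near-identical copies could be divided between neighbours by the counting, whose settings are not given in the sources used here.

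**Figure D5:**
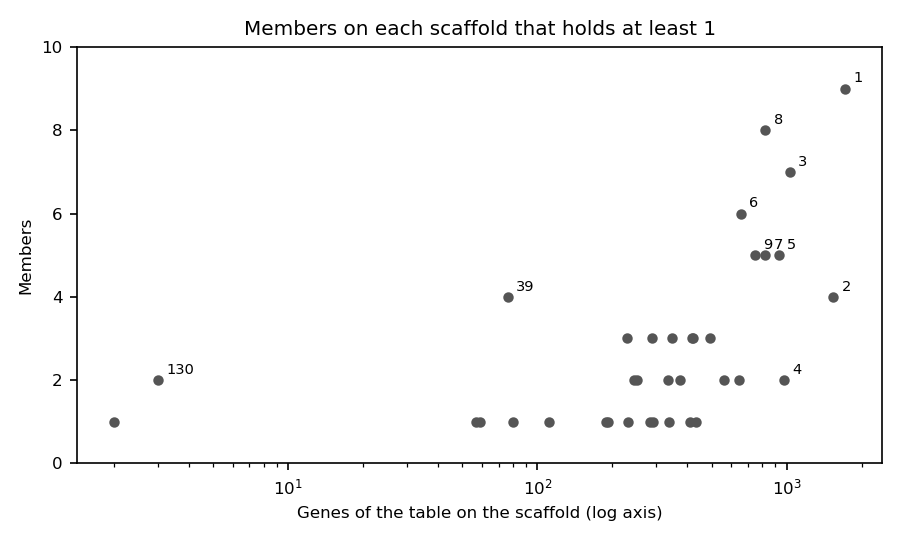
Number of members against number of genes in the table (log axis) for each of the 36 scaffolds that held a member, with some scaffold numbers printed. Scaffold 39 has 4 members among 76 genes and scaffold 130 has 2 among 3, whereas scaffold 1 has 9 among 1722.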

How the data were processed

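Per the labels' protocols, total RNA of whole mites was extracted with the RNeasy Mini kit and made into stranded paired-end TruSeq mRNA libraries. Per the submitters' processing notes, HISAT2 2.1.0, SAMtools 1.10, featureCounts 1.6.0 and edgeR were used; the build, annotation, strand setting and edgeR version are not given in the sources used here, so overlapping, antisense and near-identical genes are uncertain. The authors deposited raw counts for 19114 genes and 2 comparison tables with log2 fold changes and p-values (false discovery rates). The count table names 12 libraries but holds 11 values a line. Columns were assigned because they equal the named columns of the deposited comparison tables at all 1458 and 967 listed genes. Totals per library ran from 26090006 to 39875401.

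CPM was computed on column totals. Counts were fitted with edgeR 4.0.16 in R 4.3.3 (filterByExpr, which left 14394 genes, TMM, robust quasi-likelihood, strain as the only term). Standard errors came from the fold change and its F value. DESeq2 1.42.0 was an alternative. A check with simulated counts fitted 14191 genes. Of 100 genes of at least 50 CPM changed by 1.5 on the log2 scale, 99% were called between Trizina and London. They were drawn at random over all genes at that level, so the rate need not hold for members that differ widely between libraries. Planned gene lists could not be applied, because 0 of 19114 IDs matched the 14930 RefSeq genes. The named members were the 10 highest, the 2 largest changes in each direction per comparison, the 2 smallest, the 2 widest rank ranges, the highest gene of each strain and the border; others were chosen after their values were seen. Members and lists were chosen with earlier results of these data known.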

Additional observations from a re-analysis of the deposited data

Results flagged for a closer look

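In 42 sets of 4 libraries, one for each named member or share of counts and strain, the gap between an outlying library and its nearest neighbour was compared with the range. It passed Dixon's 95% limit in 3 sets, and chance gives about 1 in 20. For tetur03g06910 in Trizina, library 7 had 3566 CPM and the others 3137 to 3182 CPM, a gap of 0.896 of the whole range. For the same gene in BC2018-14, library b had 3153 CPM and the others 3508 to 3541 CPM, a gap of 0.913 of the range. For the share of counts in the members without the 4 highest, Trizina library 4 had 15.5% and the others 15.8%, a gap of 0.867 of the range.

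Trizina differed in opposite directions from the susceptible strains for 3 members, tetur03g09300, tetur43g00010 and tetur18g03050, each called lower than London and higher than BC2018-14. The difference between both effects is the contrast of BC2018-14 and London, which uses the same libraries, and it was not tested in others.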

How the results depend on the processing

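The number of stable members was 75 to 77 in the fits that left out a library and 75 or 76 with other scalings. The number called in at least 1 comparison was 12 to 19 in the former. With other scalings, DESeq2, other filters or no limit on the fold change it was 11 to 54, the highest being without that limit. With each library left out in turn, members called were 2 to 6 between Trizina and London, 5 to 15 between Trizina and BC2018-14, and 11 to 16 between BC2018-14 and London. An adjusted p under 0.05 with no limit on the fold change (edgeR) gave 15, 33 and 41 members in these comparisons, 54 in at least 1 of them, and 5254, 5699 and 6775 of all genes. A filter of 5 CPM in 4 libraries gave 966, 1028 and 1378 of all genes. This filter tests fewer genes and leaves out any gene that reaches 5 CPM in London alone, which has 3 libraries. Fits of the 2 strains compared gave 6 members between Trizina and BC2018-14, and the cause was not tested. Limited after the data were seen to members among the 100 highest of every strain, the numbers were 3, 2 and 6, and without the 4 highest members 1 remained between Trizina and London. The 10 highest members held 4.77% of counts in Trizina, 11.3% in London and 3.52% in BC2018-14, and the 50 highest held 12.9%, 18.5% and 10.96%. Of the 100 members, 90 to 100 were also chosen by the other means tried and 98 to 100 when a library was left out. For 19 changes of named members, 29 of 361 values under alternatives were no longer called and 0 changed sign. All 29 lay in 5 of the 19 changes. These were tetur03g09300 and tetur39g00700 in both Trizina comparisons and tetur18g03050 for Trizina against London. The alternatives include fits that left out a library of the strain not compared. No paired analysis was possible because the columns of London and Trizina share a single label number, 4, and those of BC2018-14 carry letters.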
